A study of Homo sapiens with 60 samples.

Results

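Cells of the astrocyte-derived line 1321N1, which comes from a human astrocytoma, were exposed to arsenic for 24 h and compared with cells that were left non-treated for 24 h, across all genes with enough counts. The members were chosen by the sample titles alone: 3 libraries titled for arsenic (As) and 3 for non-treated cells (nt), both at 24 h, out of 60 libraries in all, and no measured value was used. The arsenic cells had 2.55 µM sodium metaarsenite, a trivalent arsenic salt, in full medium, and both groups grew in DMEM with fetal bovine serum, penicillin, and streptomycin. The other 54 libraries hold cadmium chloride at 2.3 µM, mercury chloride at 20 µM and the earlier times of arsenic and non-treated cells, in 5 time points from 1.5 to 24 h with 3 libraries per group. The study asked if the transcriptional responses to the metals, and their time courses, tell the metals apart. As a model, the groups are limited to 1 transformed line, 1 dose, and 3 libraries that the labels call technical. The p values therefore measure only the spread between libraries of the same group, estimated over all 60 libraries, and this spread may be technical.

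Trivalent arsenic binds neighbouring thiol groups of proteins and of glutathione. In many cell types it releases the transcription factor NRF2 from KEAP1, its sensor with reactive cysteines, and NRF2 then raises genes of glutathione synthesis, NADPH production, and heme breakdown. Arsenic also activates kinases that phosphorylate the translation factor eIF2α, which favours translation of ATF4, a factor that drives genes of amino acid uptake and tRNA charging. Astrocytes are known as suppliers of glutathione and its precursors to neurons.

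The 6 libraries held 2965114 to 3857780 counts each, and 15328 to 15840 genes had at least 1 count. Mitochondrially encoded genes took 6.40% to 7.53% of the counts with arsenic and 5.54% to 6.81% without. Principal component analysis separated the groups on the first component (48.7% of the variance), whereas the second (15.9%) set the non-treated replicate 2, at -15.05, apart from the non-treated replicate 3, at 15.04. The defining astrocyte markers GFAP, S100B, AQP4, and ALDH1L1 had 0 counts in all 6 libraries, which allows up to 0.778 to 1.012 CPM, the count scaled to a common library size, when 3 counts are taken as the limit of a count of 0. SLC1A3 had at most 6 counts. VIM, an intermediate filament gene that many cultured cells express, was abundant, with 3207 ± 97.3 CPM (SD, n = 3) with arsenic and 3819.6 ± 436 (SD, n = 3) without, an LFC of -0.25 (edgeR adjusted p = 0.175). Of the 10 astrocyte markers examined, 6 had more than 3 counts in some library, among them GJA1, a gap junction gene, with 31 to 81 counts, and SOX9, a factor of glial identity, with 124 to 310. Short sets of 5, 5, 4, and 4 defining markers of neurons, microglia, oligodendrocytes, and endothelium together reached at most 22.7, 2.03, 1.19, and 0.889 CPM in any of the 6 libraries, and RBFOX3, STMN2, CX3CR1, P2RY12, MOG, and VWF were at 0 in all. Others were not at 0: SYT1 of the neuron set had 32 to 74 counts in the 6 libraries. SYP, PTPRC, and MBP reached 9, 7, and 4 counts. The longer marker lists used further on also hold genes that other cells express, and there the oligodendrocyte list summed to 100.1 to 200.1 CPM. These limits cover counting error only.

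Of 12341 genes tested, 807 (6.54%) were higher with arsenic and 956 (7.75%) were lower at an adjusted p under 0.05, 14.3% in either direction. Past a log2 fold change (LFC) of 1 in either direction, 233 genes (1.89%) were higher and 176 (1.43%) lower, 409 (3.31%) together. More genes therefore fell than rose, an order that turned with the mean of all non-treated groups as control (1275 higher and 1268 lower), whereas the changes past an LFC of 1 were more often rises. Beyond an LFC of 2, 62 genes were higher and 30 lower. The median LFC over all tested genes was 0.0004. The 3 arsenic libraries lay above all 3 non-treated libraries for 1633 genes (13.2%) and below them for 1766 (14.3%). They lay above all 15 non-treated libraries of the series for 566 genes (4.59%) and below all 15 for 552 (4.47%). Of the 233 higher genes, 161 lay above all 15, and of the 176 lower genes, 99 lay below all 15. Together, the 233 genes grew from 9586.9 to 29632 CPM, and the 176 genes shrank from 6286.8 to 2650.1 CPM. Protein-coding genes made up 203 (87.12%) of the higher and 152 (86.36%) of the lower genes, near the 88.11% of all tested genes. Long non-coding RNAs made up 22 and 18, beside 1091 of all 12341 tested genes. A test of an LFC beyond 1 by glmTreat left 45 higher and 15 lower genes. In a fit of only the 6 libraries compared, 645 genes were higher and 681 lower, of which 205 and 123 passed an LFC of 1. Without the non-treated replicate 2, 193 genes were higher and 135 lower past an LFC of 1, and the lower genes of any size numbered 626. Without the non-treated replicate 3, the numbers past an LFC of 1 were 333 and 190.

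**Figure D1:**
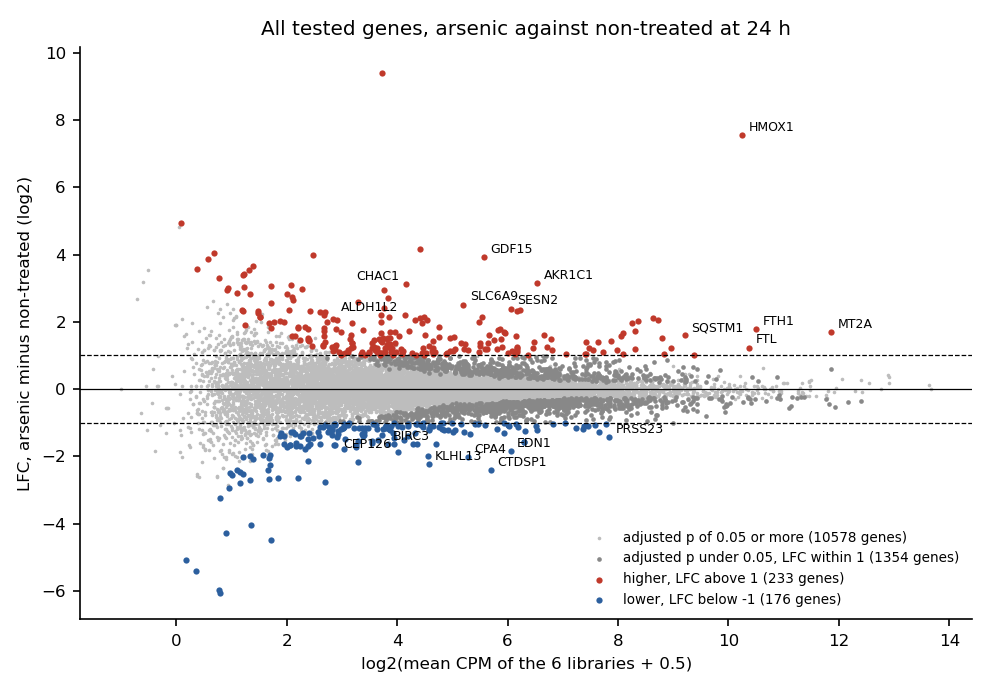
Change of each of the 12341 tested genes, as LFC of arsenic minus non-treated at 24 h (vertical axis, log2), against log2 of its mean CPM over the 6 libraries with 0.5 added (horizontal axis). The 233 higher genes reach further from 0 than the 176 lower genes, and HMOX1 combines a high level with an LFC of 7.55; fitted values of genes at 0 counts in a group, such as the uppermost point HTRA3, are not bounds.

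HMOX1, at chr22:35380361-35394214 of GRCh38, encodes heme oxygenase, which splits heme into biliverdin, iron, and carbon monoxide. Its level was 2353, 2621, and 2276 CPM in the arsenic libraries and 10.3, 15.7, and 13 CPM in the non-treated libraries. The groups were far apart, and the LFC was 7.55 (standard error 0.18, edgeR adjusted p = 6.33e-44). GDF15, at chr19:18374731-18389176, a secreted stress cytokine, had 88.3, 76.7, and 101 CPM with arsenic against 3.09, 7.69, and 6.92 without, where each arsenic library exceeded each non-treated library. The 10 largest rises and the 10 largest falls were taken only from genes whose groups did not overlap at 24 h. AKR1C1, at chr10:4963253-4983283, an aldo-keto reductase that acts on steroids and on aldehydes of lipid peroxidation, had 149, 167, and 182 CPM against 17, 17.5, and 21.9, an LFC of 3.14 (standard error 0.15, adjusted p = 1.32e-26).

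CHAC1, an enzyme that degrades glutathione, had 35.1, 35.9, and 22.7 CPM against 4.12, 4, and 2.60 (LFC 3.11, adjusted p = 8.2e-12). SLC6A9, a glycine transporter at chr1:43991500-44031467, had 60.9, 68.0, and 56.5 CPM against 11.8, 9.22, and 11.3. The arsenic replicate 3 was the lowest arsenic library for both genes and was still above every non-treated library. SESN2, which encodes a sestrin that restrains growth signaling through mTORC1, had 127, 107, and 99.3 CPM against 22.7, 18.1, and 22.2 (LFC 2.39, adjusted p = 2.26e-18). TRIB3, a pseudokinase induced by ATF4 and CHOP, had an LFC of 2.35 (adjusted p = 2.06e-17), and SEL1L3 one of 2.32 (adjusted p = 9.46e-17). ALDH1L2, a mitochondrial folate enzyme that makes NADPH, had 25.8, 24.6, and 34.2 CPM against 9.79, 2.46, and 5.77 (LFC 2.20, adjusted p = 7.07e-07). Among these genes was also a long non-coding RNA without a symbol, ENSG00000261327 at chr16:88177298-88186929, with 41.8, 33.0, and 43.9 CPM against 0.773, 3.07, and 2.89 (LFC 4.15, adjusted p = 8.16e-16). In none of these 10 genes did an arsenic library fall within the range of all 15 non-treated libraries.

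Some genes were found in 1 group only. HTRA3, which encodes a secreted serine protease, lies at chr4:8269754-8307098 and had 48, 115, and 92 counts with arsenic and 0 in each non-treated library, so that it was at least 29.9-fold higher when 3 counts per library are taken as the limit (adjusted p = 8.4e-13). It had 5.48 ± 1.23 CPM with cadmium and 25.9 ± 3.24 with mercury at 24 h (SD, n = 3), and 10.6 ± 0.449 after 12 h of arsenic. Of the 233 higher genes, 19 had at most 3 counts in each non-treated library, and of the 176 lower genes, 11 had at most 3 counts in each arsenic library. Only 2 of these 19 and 4 of these 11 had 0 counts in all 3 libraries of that group.

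**Figure D2:**
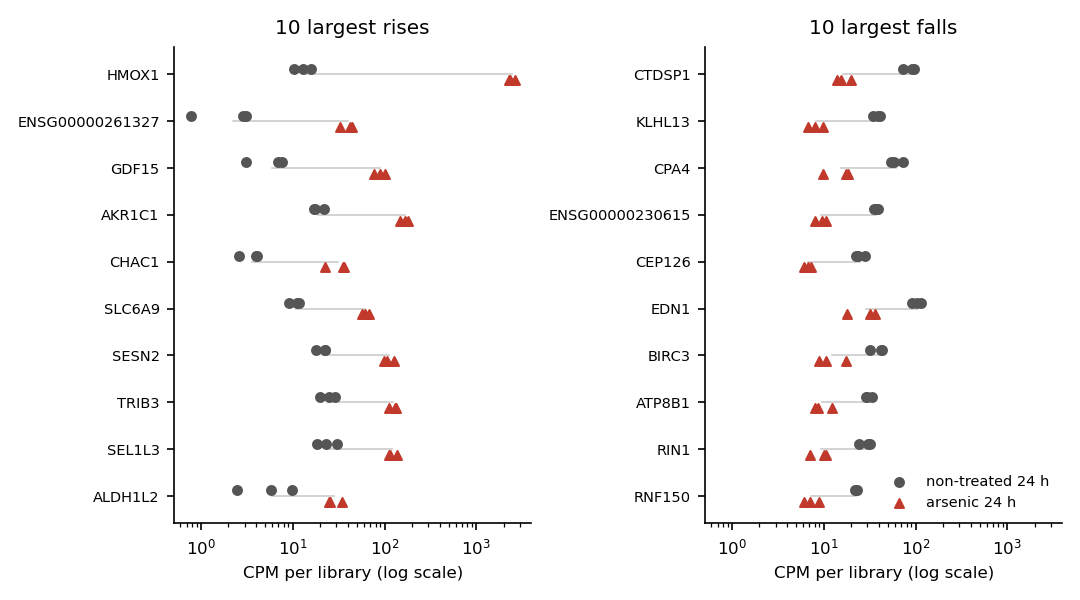
Level in CPM (log scale) of the 10 genes with the largest rises and the 10 with the largest falls (mean count over the 6 libraries of 50 or more, groups not overlapping), with a triangle for each arsenic library, a dot for each non-treated library, and a line between the group means. No triangle crosses a dot of its gene, which the choice required, and the gap is widest for HMOX1, from 15.7 to 2276 CPM.

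Among genes with a mean of 50 or more counts, the largest fall was in CTDSP1, at chr2:218398256-218405941, which encodes a small phosphatase that acts on the tail of RNA polymerase II and on SMAD proteins. Its level was 20.1, 15.3, and 13.8 CPM with arsenic and 96.3, 91.3, and 73.3 without (LFC -2.41, standard error 0.19, edgeR adjusted p = 3.54e-16). The highest arsenic library was still well below the lowest of all 15 non-treated libraries, 56.6 CPM. KLHL13, at chrX:117897813-118117340, an adaptor of the CUL3 ubiquitin ligase that takes part in cell division, had 8.03, 9.84, and 6.77 CPM against 34.5, 39.3, and 41.5 (LFC -2.22, adjusted p = 1.21e-12). CPA4, at chr7:130293134-130324180, a secreted carboxypeptidase, had 18.4, 17.7, and 9.72 CPM against 53.8, 58.1, and 72.7 (LFC -2.01, adjusted p = 8.79e-10). Both were lower in every arsenic library, which the rule for the largest falls required.

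EDN1, at chr6:12290361-12297194, encodes the precursor of endothelin 1, a peptide that constricts vessels and acts on astrocytes. It had 17.7, 32.1, and 35.9 CPM with arsenic and 92.5, 103, and 115 without (LFC -1.84, standard error 0.14, adjusted p = 7.53e-17). The arsenic replicate 1 was the lowest, and the groups did not overlap, which the rule for the largest falls required. BIRC3, an inhibitor of apoptosis that NF-κB raises, had 10.7, 17.7, and 8.84 CPM against 41.7, 32.0, and 43 (LFC -1.64, adjusted p = 8.99e-11). CEP126, a centrosomal protein gene, had 6.69, 6.08, and 7.36 CPM against 22.4, 23.4, and 28.0 (LFC -1.87, adjusted p = 1.07e-07). BIRC2, a paralog of BIRC3, had an LFC of -0.77 (adjusted p = 1.5e-09).

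Among the remaining large falls, ATP8B1, a phospholipid flippase, had an LFC of -1.64 (adjusted p = 1.57e-08), RIN1, a Ras effector that activates RAB5, one of -1.63 (adjusted p = 1.4e-08), and RNF150 one of -1.62 (adjusted p = 4.83e-07). The arsenic libraries of these 3 genes spanned 6.08 to 12.4 CPM and the non-treated libraries 21.9 to 33.2 CPM. A long non-coding RNA without a symbol, ENSG00000230615 at chr1:44030414-44115913, fell from 38.9, 36.9, and 35.2 CPM to 10.7, 9.55, and 7.95 (LFC -1.98, adjusted p = 3.67e-13). Its annotated span overlaps the start of SLC6A9, which rose and lies on the opposite strand. The counting used the strand, so that the reads of the pair are separate.

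By CPM gained, the largest rises were in MT2A, HMOX1, FTH1, FTL, and SQSTM1, and by CPM lost, the largest falls past an LFC of -1 included PRSS23, KLF6, COL11A1, and MCM7. FTH1 and FTL, the heavy and light chains of the iron store ferritin, went from 654 ± 14.9 to 2243 ± 120.0 CPM and from 792 ± 40.2 to 1865 ± 75.8 CPM (SD, n = 3). PRSS23, a secreted serine protease, had 130.1, 116, and 128 CPM with arsenic and 326, 305, and 371 without (LFC -1.42, adjusted p = 8.03e-16). The arsenic libraries were tightly grouped and lay below all 15 non-treated libraries. KLF6, a zinc finger factor, had an LFC of -1.04 (adjusted p = 1.04e-14) and COL11A1, a minor fibrillar collagen, one of -1.06 (adjusted p = 1.08e-13). MCM7, a subunit of the MCM helicase that opens DNA for replication, had 106, 104, and 95.1 CPM against 243, 254, and 190.4 (LFC -1.17, adjusted p = 2.42e-10). The other subunits MCM2, MCM3, MCM5, and MCM6 had LFCs of 0.03, -0.09, -0.28, and -0.01 (adjusted p of 0.195 or more), and MCM4 fell by 0.29 (adjusted p = 0.0223).

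The genes were further described with 50 lists of pathways and cell types, which hold 1625 genes, of which 1372 were tested. Over all lists, 204 of these genes were higher and 175 lower. The shares can be read against the 6.54% of all tested genes that were higher and the 7.75% that were lower. The lists were chosen with earlier results of these data known, so a share above these values may come in part from that choice.

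Redox and heme genes rose in large numbers. Of 30 tested genes of NRF2-type reductases and NADPH production, 25 were higher and 0 lower, with a median LFC of 0.91. Beside AKR1C1, AKR1C3 had an LFC of 2.57 (adjusted p = 0.00153) and AKR1C2 one of 2.19 (adjusted p = 1.89e-05), although 59.3% of the 50-base stretches at the end of AKR1C2 also occur in AKR1C1, so that their reads may not be told apart. NQO1, a quinone reductase, had 513, 515, and 505 CPM against 306, 291, and 283 (LFC 0.80, adjusted p = 3e-12). ME1, the cytosolic malic enzyme that makes NADPH, had 60.2, 57.3, and 77.8 CPM against 20.6, 28.0, and 26.5 (LFC 1.38, adjusted p = 4.94e-08). The groups were apart for both genes.

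Of 26 genes of glutathione synthesis and use, 14 were higher and 1 lower (median LFC 0.49). GCLM, the regulatory subunit of the enzyme that limits glutathione synthesis, had 441.2, 495, and 515 CPM against 122, 130.3, and 123 (LFC 1.95, adjusted p = 1.32e-26). CTH, which makes cysteine from cystathionine, had 22.1, 28.4, and 19.4 CPM against 3.86, 1.54, and 3.46 (LFC 2.94, adjusted p = 1.63e-10). Genes that make glutathione were thus among the members that rose, together with CHAC1, which breaks it down. The member that fell was GPX4, the selenoenzyme that reduces lipid hydroperoxides with glutathione, with 76.6, 59.6, and 80.7 CPM against 119, 109, and 118 (LFC -0.68, adjusted p = 0.000187).

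Of 18 thioredoxin and peroxiredoxin genes, 7 were higher and 1 lower (median LFC 0.22). TXNRD1, the cytosolic thioredoxin reductase, had 522, 535, and 515 CPM against 107, 126, and 156 (LFC 2.01, adjusted p = 2.32e-17). TXNRD2, its mitochondrial counterpart, had 3.34, 2.89, and 2.06 CPM against 6.44, 8.61, and 5.48 (LFC -1.30, adjusted p = 0.0393), a call that held only without the non-treated replicate 3 when single libraries were left out (adjusted p of 0.0595 to 0.165 in the other 5 fits). TXNRD1, TXNRD2, and GPX4 are all selenoproteins. Of 21 genes of selenoproteins and selenium handling, 3 were higher and 4 lower (median LFC 0.09), and 1 was higher without the arsenic replicate 2 or the non-treated replicate 1. SELENOT, a thioredoxin-like protein of the endoplasmic reticulum, had 32.1, 40.5, and 29.5 CPM against 70.3, 72.2, and 87.7 (LFC -1.17, adjusted p = 9.21e-10), and each arsenic library was below all 15 non-treated libraries.

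Of 29 genes of heme breakdown and iron handling, 10 were higher and 0 lower (median LFC 0.23), a number that was 6 without the non-treated replicate 1, including HMOX1, FTH1, and the heme transporter gene SLC48A1. BACH1, the repressor of HMOX1 that heme inactivates, had 22.1, 22.0, and 23.9 CPM against 5.67, 7.99, and 16.4 (LFC 1.18, adjusted p = 0.00107). The non-treated replicate 3 was the highest of its group and still below the arsenic libraries, while non-treated libraries of other time points reached 29.6 CPM.

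Promoters of these genes are shown for the antioxidant response element, the site of NRF2 with small MAF proteins. The core searched was TGAC NNN GC on both strands, in RefSeq promoters of GRCh38.p14 from 250 bases before to 50 bases after each start site. It was held by 13.3% of 35116 promoters, 14.4% of those of tested genes, 22.3% of the 220 promoters found for genes higher past an LFC of 1, 14.1% of the 205 found for genes lower past an LFC of -1, and 19.4% (12 of 62) of those of the redox and heme genes that rose. The core was not particular to the redox and heme genes. It was in 23.1% (15 of 65) of promoters of the stress response, amino acid, and tRNA synthetase genes that rose. For chaperones that rose the share was 26.7% (4 of 15), and for mitotic genes that fell 23.1% (6 of 26). Metallothionein and zinc transporter genes that rose held it in 3 of 3, and matrix genes that fell in 0 of 10. A promoter was found for 9447 (76.5%) of the tested genes. The shares count promoters, not genes, and promoters of a gene can overlap, so that a site can count more than once. The 62 redox and heme promoters were from 44 genes. A pair of windows upstream of the start is given in the direction of the gene, with the match in capitals, at chr6:83431165-83431203 on the minus strand for ME1 and at chr12:104215665-104215703 on the plus strand for TXNRD1.
ME1: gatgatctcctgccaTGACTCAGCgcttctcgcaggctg
TXNRD1: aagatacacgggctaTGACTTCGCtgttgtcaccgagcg
A match describes these letters only and is not a site of binding.

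Genes of the integrated stress response and of amino acid supply rose with them. Of 28 stress response factors, 19 were higher and 0 lower (median LFC 1.07). DDIT3, which encodes CHOP, had 33.4, 38.8, and 34.2 CPM against 5.92, 8.91, and 9.52 (LFC 2.13, adjusted p = 1.21e-12). ATF3, another factor of this response, had 11.4, 15.6, and 16.5 CPM against 6.70, 7.38, and 6.64 (LFC 1.08, adjusted p = 0.00653), and of its arsenic libraries replicate 1 lay within the range of all 15 non-treated libraries, 2.42 to 13.5 CPM. NUPR1, a small stress-induced nuclear protein, had an LFC of 2.96 (adjusted p = 7.11e-05). ATF4 itself had an LFC of 1.03 (adjusted p = 3.92e-09), while 53% of the 50-base stretches at its end also occur in pseudogenes.

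Among 22 cytosolic tRNA synthetases, 11 were higher and 2 lower (median LFC 0.39). WARS1, for tryptophan, had 80.6, 83.9, and 94.0 CPM against 32.7, 35.0, and 23.7 (LFC 1.50, adjusted p = 6.11e-12), and GARS1 and YARS1, for glycine and tyrosine, had LFCs of 1.22 and 1.17 (adjusted p = 2.65e-15 and 4.83e-12). VARS1, for valine, had 44.8, 48.0, and 57.1 CPM against 94.8, 91.6, and 79.1 (LFC -0.82, adjusted p = 4.34e-06). FARSA, the catalytic subunit for phenylalanine, had 227, 267, and 240.3 CPM against 362, 385, and 324 (LFC -0.55, adjusted p = 7.28e-06). Both lay below all 15 non-treated libraries. The synthetases therefore did not move as 1 block, and of the 16 mitochondrial synthetases, 0 passed in either direction (median LFC -0.17).

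Amino acid transporters were higher for 10 of 21 tested members and lower for 0 (median LFC 0.64), including SLC6A9, SLC7A11, and SLC3A2. Of 25 genes that make serine, asparagine, proline, and folate-bound carbon units, 9 were higher and 1 lower (median LFC 0.26). MTHFD2, the mitochondrial folate enzyme, had 364, 452, and 382 CPM against 125, 121, and 154 (LFC 1.58, adjusted p = 6.04e-19), and PSAT1, of serine synthesis, had 675, 735, and 579 against 223, 199.5, and 269 (LFC 1.52, adjusted p = 7.09e-16). MTHFD1, the cytosolic folate enzyme, went the other way, with 56.5, 53.8, and 59.2 CPM against 80.1, 92.8, and 74.2 (LFC -0.54, adjusted p = 0.000454), and was below all 15 non-treated libraries.

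The core of the response element that ATF4 and C/EBP factors share, TGATG N AA on both strands, was held by 3.62% of all promoters, 1.95% of those of tested genes, and 29.2% (19 of 65) of those of the stress response, amino acid, and tRNA synthetase genes that rose. These 65 promoters were from 39 genes, and a site in overlapping promoters of a gene was counted for each. The share was 5% for the genes higher past an LFC of 1 and 0.488% for those lower past an LFC of -1. For members of the stress response, amino acid, and tRNA synthetase lists that did not rise, the share was not determined. The share of these lists therefore does not bear on the change with arsenic. Windows are given for ATF3, at chr1:212565201-212565238 on the plus strand, and for GOT1, a transaminase gene that rose (LFC 0.90, adjusted p = 2.75e-07), at chr10:99430800-99430837 on the minus strand. Capitals mark the match, which for GOT1 is on the opposite strand and reads as the reverse complement.
ATF3: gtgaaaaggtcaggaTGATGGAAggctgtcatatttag
GOT1: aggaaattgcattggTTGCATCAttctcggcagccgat

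Metallothioneins and zinc transporters changed in fewer members: 5 of 19 were higher and 1 lower (median LFC 0.23). MT2A had 6919, 6314, and 3788 CPM against 1852, 1759, and 1649.5, where the arsenic replicate 3 was well below the other two but above the non-treated libraries at 24 h. Over all 15 non-treated libraries, MT2A reached 4901 CPM, above that replicate. For MT1X, 50.4% of the 50-base stretches at the transcript end also occur in other genes. The metal response element, TGCACNC or TGCGCNC on both strands, was held by 29.6% of all promoters, so that a match is frequent by itself. Windows of MT2A, at chr16:56608515-56608551, and of MT1X, at chr16:56682377-56682413, both on the plus strand, show it in capitals, for MT1X as the reverse complement.
MT2A: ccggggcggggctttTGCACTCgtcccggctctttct
MT1X: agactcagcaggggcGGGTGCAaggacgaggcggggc

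Protein quality control genes rose in part. Of 38 HSF1 target chaperones, 13 were higher and 0 lower, with a median LFC of 0.22. HSPA1B, an inducible HSP70, had 149, 162, and 140.2 CPM against 45.8, 40.0, and 63.5 (LFC 1.60, adjusted p = 5.37e-12), and DNAJB4, a co-chaperone, had an LFC of 1.11 (adjusted p = 1.76e-05). HSPA6, which is near silent in unstressed cells, had 1.3, 0.58, and 2.7 CPM against 0.258, 0, and 0. Its arsenic mean was 1.79-fold the non-treated limit of 3 counts per library, 0.851 CPM, but the arsenic replicate 2 was itself under this limit. The non-treated replicate 3 at 12 h reached 1.31 CPM, so that the size of the rise is uncertain. The heat shock element GAA NN TTC NN GAA on both strands was held by 0.490% of all promoters and by 33.3% (5 of 15) of those of the chaperones that rose. The list was made of HSF1 targets, and the share among its members that did not rise was not determined. This contrast therefore does not bear on the change with arsenic. The element is shown for HSPA6, at chr1:161524451-161524493 on the plus strand, as the reverse complement.
HSPA6: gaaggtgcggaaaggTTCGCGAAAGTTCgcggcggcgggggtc

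Of 38 genes of endoplasmic reticulum chaperones and the XBP1 pathway, 9 were higher and 1 lower (median LFC 0.18). HERPUD1, which serves degradation of proteins from this compartment, had 103, 90, and 86.3 CPM against 22.9, 37.8, and 28.3 (LFC 1.66, adjusted p = 1.41e-14), and XBP1 had an LFC of 1.26 (adjusted p = 4.5e-15). CALR, a calcium-binding chaperone, had 881, 856, and 951 CPM against 1232, 1349.5, and 1004 (LFC -0.42, adjusted p = 0.000133). Of 34 genes of autophagy and lysosome, 13 were higher and 0 lower (median LFC 0.30), with SQSTM1, the cargo receptor p62, at 905, 899, and 855 CPM against 314, 307, and 255. Proteasome subunits were higher for 6 of 35 members (median LFC 0.11), for 2 without the arsenic replicate 2, and for 3 without the non-treated replicate 1. GADD45A and BBC3, a growth arrest gene and the BH3-only gene PUMA, were among the 7 of 27 p53 targets that were higher, with LFCs of 1.04 (adjusted p = 3.83e-06) and 0.77 (adjusted p = 0.000455), and 2 targets were lower.

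Of 62 tested genes of G2 and mitosis, 23 were lower and 0 higher, with a median LFC of -0.18, and 0 passed an LFC of -1. AURKB, a kinase of chromosome segregation, had 162, 169, and 141 CPM against 234, 282, and 199 (LFC -0.60, adjusted p = 0.000139). PLK1, which drives entry into mitosis, had 184, 213, and 189 CPM against 293, 327, and 265 (LFC -0.59, adjusted p = 7.45e-06), and GTSE1, a microtubule-binding protein gene of G2 phase, had 79.9, 71.8, and 75.4 against 134, 97.4, and 125. The groups did not overlap for the 3 genes, although the non-treated libraries of other time points reached as low as 178 CPM for PLK1 and 73.2 CPM for GTSE1. MKI67, the proliferation marker Ki-67, had 315, 288, and 326 CPM against 514, 420.2, and 400.5 (LFC -0.52, adjusted p = 0.000403). In these bulk samples, fewer dividing cells and less RNA per cell cannot be told apart.

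The promoters of the mitotic genes that fell are shown for the cell cycle homology region, TTTGAA on both strands, to which the DREAM and MuvB complexes bind. The letters were in 15.2% of all promoters, 10.6% of those of tested genes, and 61.5% (16 of 26) of those of the mitotic genes that fell, against 11.2% for the genes lower past an LFC of -1. The 26 promoters were from 20 genes. For mitotic genes that did not fall, the share was not determined, so the contrast does not bear on the change with arsenic. Windows upstream of the start are given for MKI67, at chr10:128126450-128126485 on the minus strand, CDC20, the activator of the anaphase-promoting complex, at chr1:43358901-43358936 on the plus strand, and NCAPG, a condensin subunit, at chr4:17810929-17810964 on the plus strand, with the match in capitals.
MKI67: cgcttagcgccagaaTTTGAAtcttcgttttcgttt
CDC20: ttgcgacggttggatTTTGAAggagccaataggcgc
NCAPG: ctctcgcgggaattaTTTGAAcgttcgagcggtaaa
CDC20 and NCAPG had LFCs of -0.51 (adjusted p = 0.000372) and -0.54 (adjusted p = 0.000806).

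Of 53 genes of DNA replication and S phase, 9 were lower and 1, RFC1, higher (median LFC -0.09). The 9 became 4 without the arsenic replicate 1 or 2, 5 without the non-treated replicate 1, and 3 without the non-treated replicate 2. The call of RFC1 (LFC 0.42) was lost without the arsenic replicate 3 (adjusted p = 0.0581). Beside MCM7, MCM10, which loads polymerase onto the helicase, had 52.2, 57.0, and 72.5 CPM against 87.1, 96.8, and 83.7 (LFC -0.55, adjusted p = 0.000722), and E2F1, a factor that turns on S phase genes, had an LFC of -0.55 (adjusted p = 0.00402). The replication-dependent histones, whose messages lack a poly(A) tail for the most part and are read in part only by priming on poly(A), were lower for 4 of 21 tested members and higher for 0. The 4 became 1 without the arsenic replicate 1 or 3, and 2 without the arsenic replicate 2 or the non-treated replicate 2 or 3. Their median LFC was -0.95, and -0.85 with genes near 0 counts set to their limit. H2AC20 had 6.69, 5.21, and 4.42 CPM against 14.9, 14.1, and 13.8 (LFC -1.4, adjusted p = 0.00129), with 28.5% of its 50-base stretches shared with other H2A genes.

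Tubulins stood at a median LFC of -0.36, with 8 of 13 members lower and 1, TUBB2B, higher. TUBB2B had 5.69, 0.579, and 1.47 CPM against 0.773, 0, and 0, where the groups overlapped, and without the arsenic replicate 1 its call was lost (adjusted p = 0.435). TUBB4B, a beta-tubulin, had 588, 516, and 515 CPM against 866, 876, and 798 (LFC -0.65, adjusted p = 7.95e-07). TUBG1, the gamma-tubulin that nucleates microtubules, had 101, 115, and 92.8 CPM against 161, 143, and 168 (LFC -0.61, adjusted p = 3.3e-05). TUBD1, a delta-tubulin, had 4.68, 6.08, and 8.25 CPM against 13.4, 15.4, and 13.6 (LFC -1.14, adjusted p = 0.00584), a call that was lost without the arsenic replicate 1 (adjusted p = 0.0507). The summed level of the tubulins was 11033 to 11676 CPM with arsenic and 14837 to 15472 without, so that the ranges were separate.

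Matrix and adhesion genes were lower more often than higher. Of 48 collagens, laminins, and other matrix genes, 14 were lower and 3 higher, with a median LFC of -0.01, so that the typical member stayed near 0. FBN1, which builds microfibrils, had 54.9, 54.1, and 56.5 CPM against 149.6, 111, and 124 (LFC -1.22, adjusted p = 8.29e-12), and COL13A1, a transmembrane collagen, had 7.02, 7.24, and 5.89 against 24.2, 16, and 22.2 (LFC -1.63, adjusted p = 4.32e-08). COL1A1, of the main fibrillar collagen, had an LFC of -0.45 (adjusted p = 0.000564). SERPINH1, the collagen chaperone HSP47, was among the members that were higher, with 321, 329.9, and 266 CPM against 167, 174, and 187 (LFC 0.80, adjusted p = 3.22e-08). MMP14, a membrane-bound matrix protease, was higher as well (LFC 0.60, adjusted p = 0.00149).

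Of 31 integrins and focal adhesion genes, 7 were lower and 0 higher (median LFC -0.23). ITGA3, a laminin receptor subunit, had 62.6, 49.5, and 50.1 CPM against 84.0, 92.8, and 101 (LFC -0.78, adjusted p = 1.21e-06), and VCL, vinculin, had 108, 133, and 147 against 210.4, 196, and 218 (LFC -0.68, adjusted p = 1.5e-07). CAVIN1, which coats caveolae, had 758, 739.7, and 779 CPM against 1211, 1354, and 1050.5 (LFC -0.67, adjusted p = 2.32e-09). All 3 genes lay below the 15 non-treated libraries. Of 28 YAP and TEAD targets, 8 were lower and 2 higher (median LFC -0.19), and of 27 genes of SRF and the actin cytoskeleton, 8 were lower and 1 higher (median LFC -0.17), and 5 were lower without the arsenic replicate 1 or 2. The defining YAP targets did not all follow: ANKRD1 was higher, with 73.6, 76.1, and 74.5 CPM against 49.7, 55.3, and 44.7 (LFC 0.58, adjusted p = 0.000314), whereas IGFBP3 and CRIM1 were lower (LFC -0.93 and -0.66).

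Signaling genes changed in both directions. Of 32 immediate-early genes, 8 were lower and 2 higher (median LFC -0.13, and -0.10 with genes near 0 counts at their limit). JUN, an AP-1 subunit, had 180.0, 176, and 169 CPM against 266, 255, and 253 (LFC -0.56, adjusted p = 4.29e-07), and KLF2 had 7.36, 10.1, and 6.18 against 21.9, 20.6, and 22.8 (LFC -1.46, adjusted p = 0.00022). DUSP4, a phosphatase of nuclear MAP kinases, was higher, with 37.1, 50.6, and 48.6 CPM against 19.1, 14.1, and 13.8 (LFC 1.53, adjusted p = 4.25e-10). Of 22 genes of NF-κB feedback and cytokines, 3 were lower and 0 higher (median LFC -0.10). TNFAIP3, which encodes the inhibitor A20, had 3.68, 3.18, and 3.24 CPM against 9.79, 17.2, and 18.5 (LFC -2.15, adjusted p = 2.78e-07), and NFKBIA, the inhibitor IκBα, had 85.3, 110.0, and 110.4 against 191, 169, and 180.3 (LFC -0.82, adjusted p = 9.21e-10). The NF-κB targets TNFAIP3, NFKBIA, and BIRC3 each lay below all 15 non-treated libraries.

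Growth factor receptors were lower for 7 of 23 and higher for 3 receptor tyrosine kinases (median LFC -0.11), and 4 were lower without the arsenic replicate 2 or the non-treated replicate 1. EPHB3, an ephrin receptor, had 9.03, 12.7, and 13.3 CPM against 24.2, 24.6, and 22.8 (LFC -1.02, adjusted p = 0.000761). Of 30 genes of TGF-β and BMP response, 5 were lower and 3 higher (median LFC -0.08). TGFBR3, the co-receptor betaglycan, had 12.4, 19.4, and 9.13 CPM against 30.9, 27.1, and 27.7 (LFC -1.06, adjusted p = 2.92e-05), while ID3, an early BMP target, had 653, 633, and 641 against 450.2, 414, and 453 (LFC 0.55, adjusted p = 1.69e-07). Wnt and Notch genes were at background, with 2 of 31 higher and 1 lower.

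Of 36 genes of cholesterol and fatty acid synthesis, 9 were lower and 3 higher (median LFC -0.21). ME1, which is on this list for its NADPH, and ELOVL6, a fatty acid elongase, were among the members that were higher. The citric acid cycle had 4 of 22 members lower and 0 higher (median LFC -0.16), with SDHA, of succinate dehydrogenase, at 39.8, 37.3, and 44.5 CPM against 68.0, 79.9, and 50.5 (LFC -0.70, adjusted p = 0.000631). LDHA, lactate dehydrogenase, had an LFC of -0.52 (adjusted p = 2.66e-05), while glycolysis and hypoxia-type genes as a list had 4 lower and 4 higher of 32. The nuclear genes of the respiratory chain had 7 higher and 3 lower of 72, but 1 and 1 without the arsenic replicate 1 or the non-treated replicate 2, and 3 and 1 without the arsenic replicate 2 or the non-treated replicate 1. The 13 mitochondrially encoded genes had 0 in either direction, with a median LFC of 0.29, whereas 7 were higher in a fit of only the libraries compared and 9 were higher and 1 lower with no filter on low counts.

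Ribosome biogenesis genes were lower for 11 of 51 and higher for 1 (median LFC -0.14), and 6 were lower without the arsenic replicate 2 or the non-treated replicate 2. BOP1, a factor of the large subunit, had 51.5, 39.1, and 48.6 CPM against 88.3, 83.9, and 71.0 (LFC -0.81, adjusted p = 3.67e-05), and RRS1, another such factor, had 80.3, 94.6, and 67.7 against 139, 137, and 123 (LFC -0.72, adjusted p = 3.93e-06). Cytosolic ribosomal proteins stayed near 0 (3 higher and 8 lower of 79, median LFC -0.03), as did mitochondrial ribosomal proteins (1 higher and 7 lower of 72, median LFC -0.06). Without single libraries, the 8 became 2 at the lowest (arsenic replicate 1) and the 7 became 4 (arsenic replicate 3 or non-treated replicate 2) or 11 (non-treated replicate 3). Host genes of small nucleolar RNAs were lower for 4 of 27 (1 without the arsenic replicate 3), with SNHG12 at 59.5, 49.5, and 60.1 CPM against 96.6, 104, and 94.6 (LFC -0.81, adjusted p = 2.18e-05). Long non-coding RNAs on the list were higher for 4 of 14 (2 without the arsenic replicate 1 or the non-treated replicate 1), with LUCAT1 at 7.69, 6.95, and 5.60 CPM against 1.03, 1.23, and 0 (LFC 3.10, adjusted p = 0.00107). CRY1, a repressor of the circadian clock, had 7.02, 9.84, and 8.54 CPM against 21.4, 13.5, and 24.5 (LFC -1.22, adjusted p = 0.000102), and 2 of 17 clock genes were lower and 1 higher.

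Smaller lists held single members that moved. Interferon-stimulated genes were higher for 4 of 23 (median LFC 0.37; 2 without the arsenic replicate 2 or the non-treated replicate 1), with HLA-C at 29.8, 19.7, and 16.2 CPM against 9.01, 7.38, and 8.94 and B2M at 243, 267, and 284 against 155, 144, and 225. ABCC2, an exporter of glutathione conjugates, was the member of 16 ABC transporters that was higher, with 86.0, 76.7, and 69.8 CPM against 29.4, 32.6, and 39.8 (LFC 1.19, adjusted p = 6.22e-07), and 1 was lower. SAT1, which acetylates polyamines, was among 4 of 14 genes of polyamine metabolism that were higher. The BCL2 family and caspases had 2 higher and 2 lower of 22, and SR splicing factors and CLK kinases had 3 lower of 29, including SRSF4 (LFC -0.54, adjusted p = 0.000102). Of the astrocyte list, 10 of 24 genes were tested: CLU, the chaperone clusterin, was higher, with 96.0, 96.4, and 85.1 CPM against 45.8, 46.7, and 32.9 (LFC 1.14, adjusted p = 2.85e-08), and SOX9, a factor of glial identity, was lower, with 43.2, 37.3, and 36.5 against 73.1, 68.6, and 89.4 (LFC -0.98, adjusted p = 5.82e-07). CD44, a hyaluronan receptor on the same list, was lower too (LFC -0.46, adjusted p = 1.57e-06). Of the oligodendrocyte list, 3 of 12 genes were tested and 2 were lower, among them CSPG4, the proteoglycan NG2, with 45.5, 38.5, and 58.6 CPM against 114, 113, and 108 (LFC -1.23, adjusted p = 1.11e-09). On the neuron list, NEFL had 1, 1, and 0 counts with arsenic and 29, 14, and 15 without, at least 5.86-fold lower. The part of other cell types in these values was not tested.

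The direct comparisons with the other metals at 24 h used no non-treated library, and the doses differed, with 2.3 µM for cadmium and 20 µM for mercury. Against cadmium, 518 genes (4.2%) were higher with arsenic and 736 (5.96%) lower, 10.2% together, of which 120 (0.972%) and 176 (1.43%) passed an LFC of 1, 2.4% together. Against mercury, 566 genes (4.59%) were higher with arsenic and 837 (6.78%) lower, 11.4% together, of which 91 (0.737%) and 254 (2.06%) passed an LFC of 1, 2.8% together. In a fit of only the libraries compared, 255 genes were higher than with cadmium and 337 lower, of which 102 passed an LFC of -1, and without the cadmium replicate 3 the lower genes numbered 466. The genes higher than with mercury numbered 330 and 369 without the arsenic replicates 1 and 2, and 340 and 324 without the mercury replicates 1 and 2.

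Of the 30 reductases, 19 were higher than with cadmium and 0 lower, and of the 28 stress response factors, 16 were higher and 2 lower. In the other redox and amino acid lists the higher members were fewer, with 10 of 26 for glutathione, 6 of 18 for thioredoxin, 7 of 29 for heme and iron, and 9 of 21 for amino acid transporters. Against mercury, 0 of the 30 reductases were higher with arsenic and 9 were lower. For the stress response factors, 0 were higher than with mercury and 8 lower. These numbers were 0 and 3 for glutathione and 0 and 2 for heme and iron. For thioredoxin and amino acid transporters they were 1 and 2, and 1 and 3. The largest differences in favour of arsenic over cadmium were in HMOX1 (324.3, 310.1, and 442.3 CPM with cadmium, LFC of arsenic minus cadmium 2.75), ALDH1L2 (7.5, 2.86, and 3.95 CPM, LFC 2.51, adjusted p = 7.76e-08), and UNC5B, a netrin receptor (7.05, 6.01, and 5.03 CPM, LFC 2.35, adjusted p = 2.22e-10). UNC5B had 23.7, 39.6, and 30.6 CPM with arsenic and 44.7, 36.6, and 45.6 with mercury. CPA4 and EDN1, which fell with arsenic, had with cadmium 62.8 ± 7.59 and 93.8 ± 6.67 CPM and in non-treated cells 61.5 ± 9.90 and 103 ± 11.2 CPM (SD, n = 3), and arsenic was below cadmium by an LFC of -2.05 (adjusted p = 7.64e-10) and -1.70 (adjusted p = 4.05e-15).

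Chaperones and immediate-early genes were lower with arsenic than with mercury or cadmium in many members. Of 32 immediate-early genes, 17 were lower than with mercury and 0 higher, and 13 were lower than with cadmium and 1 higher. Of 38 HSF1 targets, 32 were lower than with mercury and 0 higher, and 10 were lower than with cadmium and 1 higher. HSPA1A had 31.1, 21.4, and 19.7 CPM with arsenic, 657, 715, and 522 with cadmium, and 672, 842, and 657 with mercury, where arsenic was lower by an LFC of -4.72 and -4.92 (adjusted p = 6.18e-33 and 4.54e-34). IER3, an immediate-early gene, had 2.01, 1.16, and 2.06 CPM with arsenic, 24.1, 24.9, and 34.1 with cadmium, and 46.3, 36.0, and 28.1 with mercury. GADD45B, a growth arrest gene that fell with arsenic (LFC -0.65, adjusted p = 2.87e-05), had 39.2 ± 4.25 CPM with arsenic, 61.7 ± 1.47 in non-treated cells, 163 ± 13.2 with cadmium, and 191 ± 11.8 with mercury (SD, n = 3). The orders of cadmium and mercury were not tested.

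Mitotic genes were lower with mercury than with arsenic for 24 of 62 members and higher for 2, and COL11A1 and MCM7 were also lower with mercury (LFC of arsenic minus mercury 0.58, adjusted p = 3.04e-05, and 0.66, adjusted p = 0.000859). By contrast, SOX9 was lower with arsenic than with cadmium (LFC -1.07, adjusted p = 8.55e-08) and than with mercury (LFC -1.16, adjusted p = 1.21e-08). With cadmium and mercury, SOX9 had 81.3 ± 19.7 and 87.1 ± 11.9 CPM (SD, n = 3), near the non-treated 77.0 ± 11 CPM. The largest differences in favour of arsenic over mercury were in UCP2, a mitochondrial carrier (35.0 ± 9.77 CPM with arsenic, 38.6 ± 3.89 in non-treated cells, and 11.7 ± 1.4 with mercury, SD, n = 3), ATOH8, and MRPL20-AS1. The 3 genes did not pass between arsenic and non-treated cells, and without the arsenic replicate 1 MRPL20-AS1 lost its call against mercury (LFC 0.90, adjusted p = 0.0529).

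**Figure D3:**
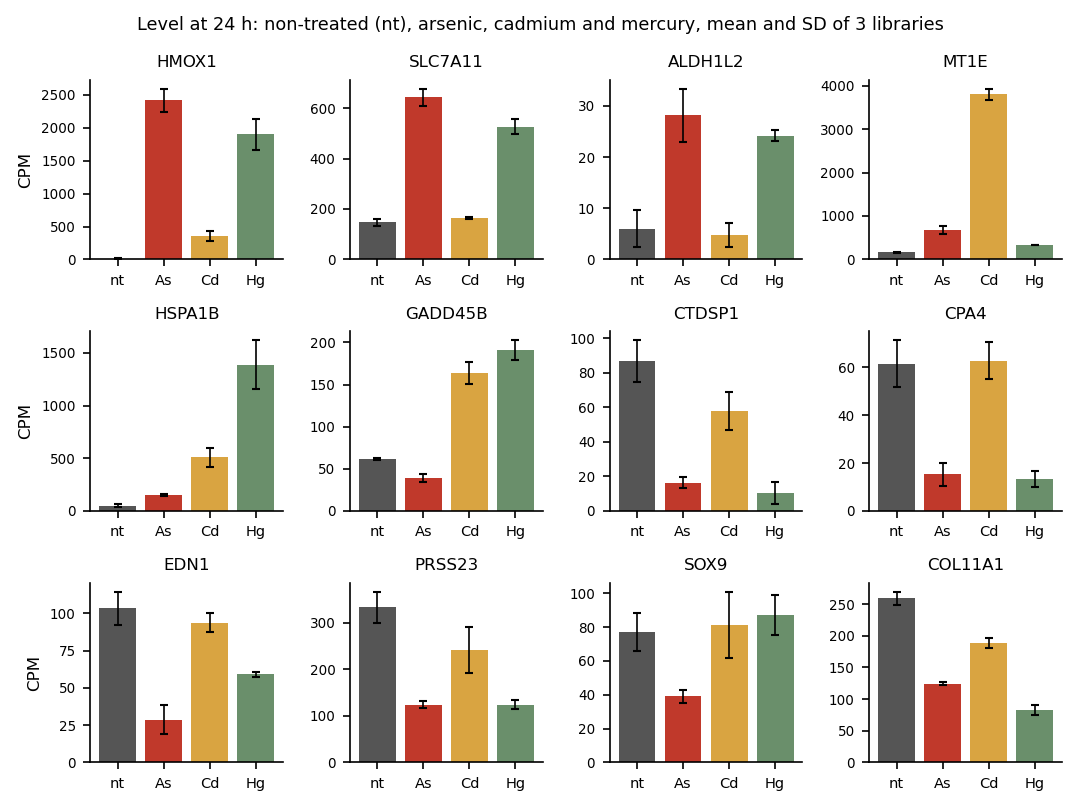
Level in CPM (bars, mean of 3 libraries, with SD) of 12 genes at 24 h in non-treated cells (nt) and with arsenic, cadmium, and mercury, with an axis for each gene that starts at 0. SOX9 is low with arsenic alone, with 39.0 CPM, MT1E is highest with cadmium and HSPA1B with mercury. HMOX1 is higher with arsenic and mercury than with cadmium, where its 310.1 to 442.3 CPM still exceed the 10.3 to 15.7 CPM of non-treated cells.

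The effect of arsenic at 24 h was compared with its effect at 12 h, each against the non-treated libraries of its own time point. The LFC was more positive at 24 h for 83 genes (0.673%) and more negative for 111 (0.899%), 1.57% together, and by more than 1 for 17 (0.138%) and 24 (0.194%), 0.332% together. These numbers moved with single libraries, to 19 and 36 without the arsenic 24 h replicate 2, and to 182 and 171 without the non-treated 24 h replicate 3. AKR1C1 had 40.9, 42.3, and 54.2 CPM after 12 h and 149, 167, and 182 after 24 h, and its LFC grew by 1.68 (adjusted p = 4.03e-06). The LFC of HMOX1 grew by 1.21 (adjusted p = 0.00568), with arsenic going from 1594 to 2417 CPM and the non-treated libraries from 18.7, 19.2, and 21 CPM at 12 h to 10.3, 15.7, and 13 at 24 h. The difference enters from both sides. The LFC of TXNRD1 grew by 0.96 (adjusted p = 0.00722), whereas the LFC of GCLM did not differ detectably (difference 0.03, adjusted p = 0.947).

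Falls deepened as well. RNF150 had 15.1, 17, and 15.5 CPM after 12 h of arsenic, within the 12.0 to 18.8 CPM of the non-treated libraries at 12 h, and 7.02, 6.08, and 8.84 after 24 h (difference of LFCs -1.61, adjusted p = 0.00518). ENSG00000230615 differed by -1.59 (adjusted p = 0.000115), KLHL13 by -1.40 (adjusted p = 0.00691), CTDSP1 by -1.06 (adjusted p = 0.0238), and COL11A1 by -0.75 (adjusted p = 0.00125). For RNF150, ENSG00000230615, KLHL13, and CTDSP1, the mean of the non-treated libraries was also higher at 24 than at 12 h, by 22.6 against 16.1 CPM for RNF150 and 38.5 against 27.5 for KLHL13, and this difference enters the value.

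**Figure D4:**
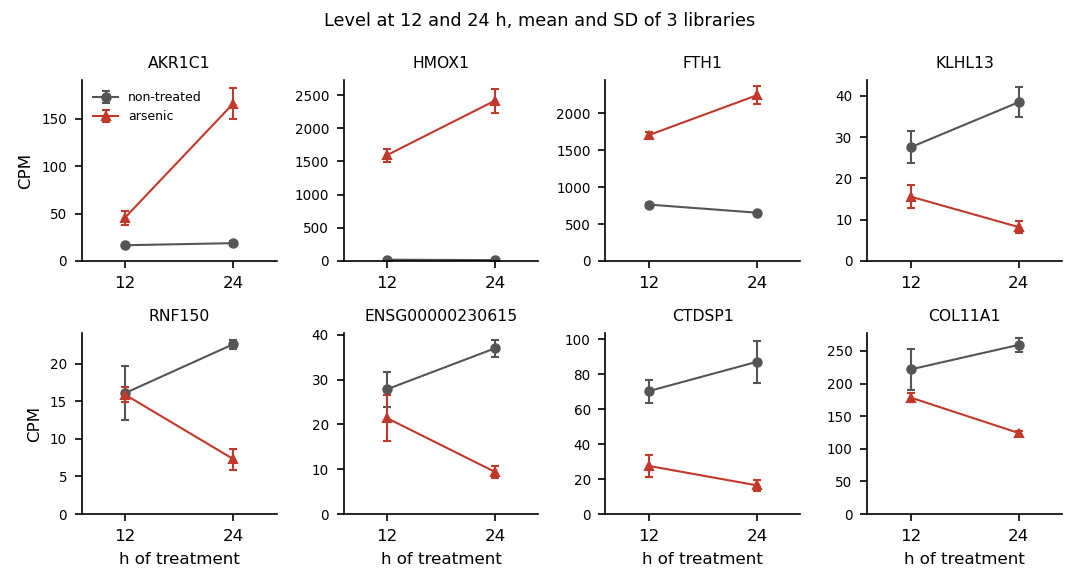
Level in CPM (mean and SD of 3 libraries) after 12 and 24 h in non-treated cells (dots) and with arsenic (triangles) for 3 genes that rose and 5 that fell, with an axis for each gene that starts at 0. AKR1C1 climbs from 45.8 to 166 CPM with arsenic, whereas RNF150 drops from 15.9 to 7.31 CPM while the non-treated level goes from 16.1 to 22.6 CPM.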

How the data were processed

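Polyadenylated RNA of 60 libraries was read by 3′ sequencing. The deposited values are raw gene counts, which the authors made with STAR 2.7.9a on GRCh38 with GENCODE annotation and a strand-specific union count of single-end reads. From these counts, 12341 of 62703 genes passed edgeR's filterByExpr (minimum count 10, minimum total 15), and 92 spike-ins were at 0. Counts were scaled by TMM and fitted over all 60 libraries in 20 groups with the quasi-likelihood test of edgeR 4.0.16 (R 4.3.3), with Benjamini-Hochberg adjustment over all tested genes. CPM refer to TMM-scaled library sizes, summed marker levels to plain totals. A call needed an adjusted p under 0.05. Reads are not independent molecules, so that limits of 3 counts cover counting error only. The test was checked on counts simulated from the fitted model, with changes only in genes above a minimum mean count. Of 100 genes at an LFC of 1.5, 96 were called, and 11 unchanged genes were called in a run of 12100 genes in all. The calls of genes simulated at an LFC of 1 are not reported here. The check does not cover genes with few counts or the model itself. Alternatives included DESeq2 1.42.0, other filters, controls, and each library left out.

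The named genes are the 10 largest rises and falls with a mean of at least 50 counts and no overlap, the 5 largest rises and falls in CPM past an LFC of 1, up to 3 called members of each list with the largest LFC, the 3 largest differences in each direction for the other comparisons, the genes the study names, and astrocyte markers. The members and lists were chosen with earlier results of these data known. Outside this rule, HTRA3, NQO1, GCLM, GPX4, BACH1, DDIT3, ATF3, ATF4, GOT1, VARS1, FARSA, MTHFD1, CALR, MKI67, CDC20, NCAPG, RFC1, the other MCM genes, TUBB2B, COL1A1, SERPINH1, MMP14, ANKRD1, JUN, KLF2, ID3, and ELOVL6 were chosen after their values were seen. Promoter sequences are from RefSeq. The 6 libraries were distinct, and no sample was left out. Some genes that the rule selects are not reported here.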

Additional observations from a re-analysis of the deposited data

Results flagged for a closer look

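The effect of arsenic differed between 24 and 12 h by a test of the difference itself for 83 genes in the positive and 111 in the negative direction (edgeR interaction, adjusted p under 0.05). Among the 3 largest differences in each direction, RNF150 (-1.61), the long non-coding RNA ENSG00000230615 (-1.59), and AKR1C1 (1.68, each as a difference of LFCs) kept the call under every alternative run for them. RN7SL1 (-1.55), GNG5 (2.58), and SMIM30 (1.57) lost it under some. RN7SL1 lost it with only the libraries compared (adjusted p = 0.055) and without the arsenic 12 h replicate 1, the arsenic 24 h replicates 1 and 2, the non-treated 12 h replicates 1 and 2, or the non-treated 24 h replicate 1 (0.0735 to 0.126). GNG5 lost it without the arsenic 12 h replicate 1, the arsenic 24 h replicates 1 and 2, the non-treated 12 h replicate 2, or the non-treated 24 h replicates 1 and 2 (adjusted p of 0.0528 to 0.169). SMIM30 lost it with only the libraries compared (0.0514), with the replicate block (0.0505), and when any of 8 of the 12 libraries was left out (0.0675 to 0.16). Of the 50-base stretches at the transcript end, 84.0% of GNG5 and 84.4% of RN7SL1 occur elsewhere, so that their counts are uncertain. The arsenic libraries of GNG5 had 5.89, 21.3, and 30.8 CPM at 12 h and 56.5, 41.1, and 26.5 at 24 h.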

How the results depend on the processing

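Of 2777 values of named genes under alternatives, 2541 kept direction and side of the threshold, 233 lost the call, and 2 gained it. By gene, 51 of the 195 named for arsenic against non-treated cells lost the call under at least 1 alternative. Both gains were for VIM, with all non-treated groups as control (LFC -0.46, edgeR adjusted p = 0.000234) and with no filter on low counts (LFC -0.26, adjusted p = 0.0185). FHL2 reversed, from an LFC of 0.25 to -0.13 when the mean of all non-treated groups served as control, and the cause was not tested. A test beyond an LFC of 1 (glmTreat) left 45 higher and 15 lower genes, and all non-treated groups as control gave 1275 higher and 1268 lower genes of any size. DESeq2 gave 249 and 180 genes past an LFC of 1, of which 230 and 173 were shared with edgeR. Fewer were shared with all non-treated groups as control (168 of 233 and 109 of 176), without the non-treated replicate 2 (161 and 120), and without the arsenic replicate 1 (195 and 117). With single libraries left out, 193 to 333 genes were higher and 135 to 190 lower past an LFC of 1, and 543 to 895 and 626 to 927 at any size. Against cadmium these ranges were 102 to 138, 125 to 165, 347 to 505, and 466 to 658, and against mercury 75 to 118, 203 to 250, 324 to 479, and 590 to 762. Fitting only the libraries compared gave 102 lower genes past an LFC of -1, and 255 and 337 of any size, against cadmium. A minimum count of 30 gave 59 genes higher than with mercury past an LFC of 1. For the difference between 24 and 12 h, leaving out single libraries gave 5 to 91 and 9 to 41 genes past an LFC of 1, and 19 to 182 and 36 to 171 of any size. DESeq2 gave 29, 143, and 186, only the libraries compared 7, 11, 30, and 37, and no filter 34 and 131.

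The replicate numbers did not pair the samples: correlations of same-numbered deviations were 0.021, -0.025, and -0.024. With the replicate block, 226 genes were higher and 160 lower past an LFC of 1, 768 and 900 at any size, and the difference between times gave 12 and 21 past an LFC of 1 and 62 and 99 at any size. At 2965114 to 3857780 counts per library, the precision for genes with few counts was low, and the calls of 19 higher and 11 lower genes rest on a group with at most 3 counts in each library.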
